A study of Mus musculus with 50 samples.

Results

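The genes described here are the heat shock proteins and the DnaJ co-chaperones of the mouse hippocampus, 67 of the 34692 genes and unnamed probes of the Agilent array. They were chosen by symbol: every gene whose name begins with Hspa, Hspb, Hspd, Hspe, Hsph, Hsp90, Dnaja, Dnajb or Dnajc, measured by 110 probes. Hspbp1 and Hspbap1 came in by their names only and encode HSP-binding proteins, not chaperones. Hspa1b had no probe of its own, since 2 of the 4 Hspa1a probes also match it.

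The study asked how well array platforms detect small differences between these genotypes. RNA came from both hippocampi of male C57/BL6j mice, housed individually for 7 days, 5 wild-type (WT) and 5 transgenic (TG). TG mice overexpress δC-DCLK-short, from a splice variant of doublecortin-like kinase that lacks the doublecortin domains, on the same background. The study states that the δC form makes the kinase constitutively active. Which promoter drives the transgene, and in which cells, is not given in the sources used here. RNA was amplified, coupled to Cy3 or Cy5 and hybridised on 10 two-color arrays, so that every mouse was on 2 arrays, once in each dye, and every array compared 1 WT with 1 TG mouse. Arrays 1 to 5 carried WT in Cy3 and arrays 6 to 10 carried TG in Cy3. Because arrays share mice, the p values over 10 arrays take as independent what is not, and the calls were repeated with 1 level per mouse.

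Heat shock proteins hold unfolded proteins, refold them or hand them on for degradation. HSP70 proteins do so in cycles of ATP hydrolysis, which DnaJ proteins start through their J domain and exchange factors end. HSP90 acts later, on nearly folded kinases and receptors, and HSP60 with its lid HSP10 encloses proteins in the mitochondrial matrix. In neurons the constitutive Hspa8 with Dnajc6 (auxilin) strips clathrin from vesicles, and with Dnajc5 (cysteine string protein) it keeps the release machinery folded.

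The genotype of each array was taken as its label gives it, and that assignment is in doubt. As labelled, the signs are opposite to those of the study for the same arrays. In the 6 pairs of arrays that share a mouse only as labelled, the log ratios of all genes had a mean correlation of 0.0405 (-0.163 to 0.384). In the 6 pairs that would share one only if the labels of arrays 1 to 5 and 6 to 10 were exchanged, it was 0.249 (0.049 to 0.529). These ranges overlap, and arrays 2 and 3, which share no mouse either way, correlated at 0.726. Over 1704 genes joined by accession, the t statistics correlated at -0.20 with those of the ABI arrays of the same series, a description only. The exchange turns the sign of every log2 ratio of an array, and of every mean over arrays, and leaves its size. It also changes the levels per mouse: the 2 channels of 8 of the 10 labelled mice would then come from 2 animals each, and only TG4 and WT5 would stay single animals. For WT3 and WT4 these would be the animals TG2 and TG3. All signs, and all levels per mouse, are given as labelled.

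Every value of a member is from Agilent. No member had an ABI probe with a public accession, and the Affymetrix, Illumina and LGTC arrays of the series were not used here. The median raw signal of an array ran from 109 to 169 in Cy3 and from 77.9 to 165 in Cy5, and 36866 to 38584 of 41174 probes exceeded the negative controls in both channels. Of the members, 64 of 67 exceeded them on every array with every probe, 101 of 110 probes were well above background in all 20 channels, and no spot was saturated. All 6 neuron markers were present. Dclk1, the gene the transgene comes from, had a log2 TG over WT of -0.07 ± 0.03 (SE, n = 10 arrays, limma adjusted p = 0.273) over 4 probes, and was higher in TG on 3 of 10 arrays. Whether those probes lie within the transgene was not tested, so this checks no label.

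The genes that passed the test were Hspe1, Dnajc19, Dnajc24, Dnajc15 and Dnajc17, all higher in TG as labelled: 5 of 67 members (7.46%) had a Benjamini-Hochberg adjusted p of 0.1 or less in limma, where 8.12% of all genes did, and none was lower. For the higher direction the share over all genes was 4.01%. At an unadjusted p under 0.05 there were 13 members, 6 higher and 7 lower, beside 19.1% of all genes. The median log2 ratio was 0.0011 over the members and 0.0034 over all genes, and 44 members lay within 0.1 of 0. None of the members had the same sign on all 10 arrays, as 2.28% of all genes did.

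**Figure D1:**
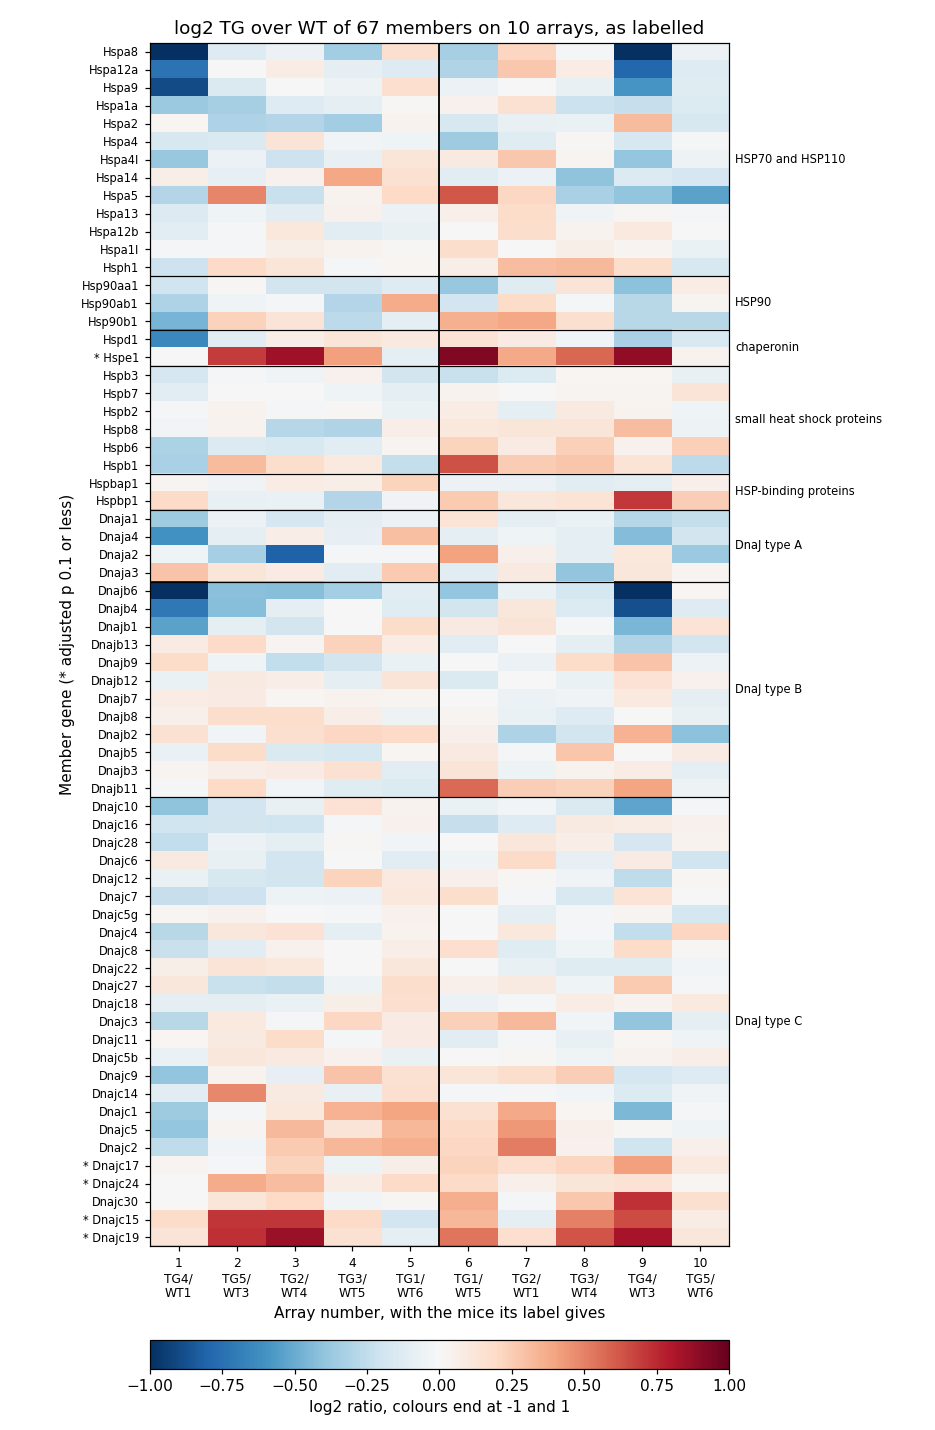
Colour gives the log2 ratio of TG over WT, as labelled, for 67 members (rows, grouped by family) on 10 arrays (columns, with the mice of their labels; arrays 1 to 5 left of the line). Hspe1, Dnajc19 and Dnajc15 are red on most arrays, and Hspa8, Dnajb6 and Dnajb4 are blue on arrays 1 and 9.

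Of the 5 genes, 3 work in mitochondria: Hspe1, Dnajc19 and Dnajc15. Hspe1 is HSP10, the lid of the HSP60 chamber. Its probe lies at chr1:55392238-55392297 by the files' coordinates, whose build the sources used here do not give. Its log2 ratio ran from -0.10 (array 5) over a median of 0.49 to 0.92 (array 6) and was above 0 on 9 of 10 arrays, with a mean of 0.47 ± 0.11 (SE, 1.38-fold, limma adjusted p = 0.0433). The level per mouse was 10.26, 9.49, 9.64, 9.78 and 10.26 on the log2 scale in WT mice 1, 3, 4, 5 and 6. It was 10.31, 10.44, 10.36, 10.38 and 10.26 in TG mice 1 to 5. As labelled, WT mice 3, 4 and 5 were low, while WT mice 1 and 6 came within 0.01 of the lowest TG mouse. The SD was 0.36 in WT and 0.07 in TG. It was the only member whose 2 groups of mice did not overlap, as 2.12% of all genes did not, and the gap was narrower than the spread within either group.

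Dnajc19 encodes a J protein of the motor that pulls precursors through the inner mitochondrial membrane. It was measured by 1 probe, at chr3:33526174-33526592. Its log2 ratio ran from -0.10 over a median of 0.35 to 0.86, with a mean of 0.40 ± 0.10 (SE, n = 10 arrays, limma adjusted p = 0.0481), and was above 0 on 9 arrays. WT mice 1, 3, 4, 5 and 6 had levels of 9.61, 9.05, 9.11, 9.39 and 9.79, and TG mice 1 to 5 had 9.70, 9.91, 9.76, 9.74 and 9.86. The groups overlapped through WT mouse 6, and WT mice 3 and 4 were lowest again.

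Dnajc15 encodes a related J protein of the inner membrane. Its mean log2 ratio was 0.31 ± 0.09 (SE, n = 10 arrays, limma adjusted p = 0.0899), above 0 on 8 arrays. WT mice 1, 3, 4, 5 and 6 had levels of 8.88, 8.27, 8.29, 8.89 and 9.09, and TG mice 1 to 5 had 8.996, 8.89, 9.15, 8.81 and 9.11. Only WT mice 3 and 4 lay below the lowest TG mouse.

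The remaining 2 were smaller. Dnajc24, a J protein needed to make diphthamide on elongation factor eEF2, differed by 0.15 ± 0.04 (SE, n = 10 arrays, limma adjusted p = 0.0543) and was above 0 on 9 arrays. Dnajc17, a nuclear J protein linked to splicing, differed by 0.14 ± 0.04 (SE, n = 10 arrays, limma adjusted p = 0.0924) and was above 0 on 8 arrays. The mice labelled WT3 and WT4, whose levels would each mix 2 animals after the exchange, had the lowest levels of both, at 6.62 and 6.76 for Dnajc24 and at 7.08 and 7.03 for Dnajc17.

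**Figure D2:**
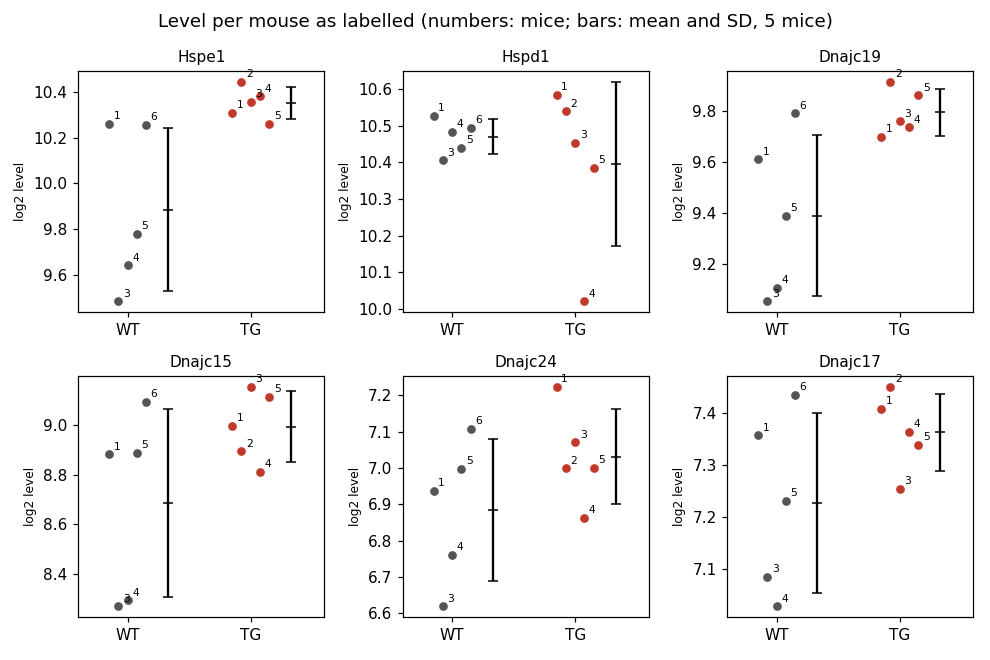
Points give the log2 level of each mouse, the mean of its 2 channels, for 5 WT and 5 TG mice as labelled, with the mouse number beside each; bars give mean and SD. WT mice 3 and 4 lie lowest for Hspe1, Dnajc19, Dnajc15, Dnajc24 and Dnajc17, and TG mouse 4 lies lowest for Hspd1.

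With 1 level per mouse, limma called none of the 67 members, and 0.0836% of all genes. Their adjusted p rose to 0.376 for Hspe1 and 0.393 for Dnajc19. At an unadjusted p under 0.05 this fit had 4 members: Hspe1, Dnajc19, Dnajb11 and, in the lower direction, Dnaja1. The limma adjusted p of Dnajb11 and Dnaja1 were 0.560 and 0.430. The share of all genes under this limit was not taken for this fit, so the count is no result about the members. Leaving out both arrays of WT mouse 3, WT mouse 4, TG mouse 2, TG mouse 3 or TG mouse 5 left 0 members called, and leaving out WT mouse 5 left 1, Dnaja1. Without TG mouse 1 there were 3, Dnaja1, Hspe1 and Dnajc19. There were 4 without WT mouse 1, 5 without WT mouse 6 and 6 without TG mouse 4. Of single arrays, leaving out array 2 or 3 left 1 (Hspe1) and array 6 left 1 (Dnaja1). Array 9 left 2 (Hspe1 and Dnajc19), and arrays 1 and 8 left 3 each. Leaving out array 4 or 10 left 4, array 5 left 5 and array 7 left 6, among them Hspa1a and Dnajb4 in the lower direction. All genes called in these fits ran from 316 to 3142, so the counts of members are not on 1 background.

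Of the 9 members in the mitochondrial list, 3 were called (33.3%), all higher, beside 8.12% of all genes in either direction and 4.01% higher. The median log2 ratio was 0.04. This list was chosen with earlier results of these data known. Its 3 called genes had 1 probe each and were all lowest in WT mice 3 and 4. With 1 level per mouse 0 of the 9 were called. Dnajc30 was at 0.18 ± 0.07 (SE, limma adjusted p = 0.159) and above 0 on 7 arrays. Hspa9, the HSP70 of the matrix (mortalin), was at -0.18 ± 0.09 (adjusted p = 0.329), and Dnaja3 at 0.04. Hspd1, the HSP60 chamber that Hspe1 closes, was at -0.07 ± 0.07 (SE, n = 10 arrays, adjusted p = 0.68).

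Hspe1 and Hspd1 lie head to head on chromosome 1, and the promoter windows of RefSeq (GRCm38.p6; 250 bases before to 50 after a start) overlap by 285 bases. The stretch before the Hspe1 start is shown because both genes share it while their ratios differed. Its capitals mark heat shock element units, GAA and its complement TTC, 2 bases apart, searched as GAANNTTC and TTCNNGAA, which read the same on both strands and can overlap. In chr1:55087898-55088147 (+ strand) a run of 4 units fills 18 bases, 71 bases before the Hspe1 start and 126 bases before the Hspd1 start on the other strand. The promoter of Dnajb6 is shown beside it because that member had the lowest mean ratio and also holds 3 units in a row. That mean was -0.52 on all 10 arrays and -0.24 without arrays 1 and 9. It is chr5:29735648-29735897 (+ strand).
Hspe1: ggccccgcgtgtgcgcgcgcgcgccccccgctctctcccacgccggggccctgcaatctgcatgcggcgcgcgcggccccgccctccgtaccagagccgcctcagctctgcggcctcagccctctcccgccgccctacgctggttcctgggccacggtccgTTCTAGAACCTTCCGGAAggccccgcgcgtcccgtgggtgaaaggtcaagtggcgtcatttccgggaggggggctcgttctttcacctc
Dnajb6: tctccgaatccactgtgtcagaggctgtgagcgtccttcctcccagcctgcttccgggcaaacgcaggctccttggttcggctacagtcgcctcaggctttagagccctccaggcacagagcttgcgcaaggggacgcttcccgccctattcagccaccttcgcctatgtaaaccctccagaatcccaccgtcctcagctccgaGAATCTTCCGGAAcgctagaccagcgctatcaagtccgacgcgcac

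A promoter was found in the table for 53 of the 67 members, 70 windows in all. At least 2 adjoining units were in 24.3% of these windows and in 15.1% of all 32851 windows. At least 3 were in 8.57% (6 of 70) and 0.603%, and the members holding them were Hspe1, Hspd1, Dnajb6 and Hsph1. Hspe1 and Hspd1 share their run, and the 2 windows of Dnajb6, like the 2 of Hsph1, overlap. The share of the members thus counts the same stretches more than once. The log2 ratios of these 4 genes ran from -0.52 to 0.47, with 1 called, and those of the other 49 from -0.26 to 0.40, with 4 called. Without arrays 1 and 9 the genes at these low ends, Dnajb6 and Dnajb4, were at -0.24 and -0.12. A match is a description of the letters in the window and not a site in use.

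No HSP70 or HSP110 gene was called. Of 13, 3 had a mean above 0, and the median log2 ratio was -0.07. Hspa8, the constitutive HSP70 of the cytosol and synapse, had the second lowest mean of all members, -0.51 ± 0.26 (SE, n = 10 arrays, limma adjusted p = 0.331). This mean came from 2 arrays and 1 probe. The upstream probe of Hspa8 gave -4.63 on array 1 and -4.60 on array 9, and -0.59 to 0.44 on the other 8 arrays. The downstream probe, 1001 bases nearer the end of the transcript, gave 0.10 and -0.00 on these 2 arrays and -0.34 to 0.15 on the others.

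Arrays 1 and 9 share the mouse labelled TG4, which would be WT5 after the exchange. Its level by the upstream Hspa8 probe was 7.85, and those of the other 9 mice were between 12.2 and 12.8. By the downstream probe it was 14.1, among levels of 14.0 to 14.3. The 2 probes thus gave different answers for the same gene in 1 mouse. The files place both probes on chromosome 5 where RefSeq has Hspa8 on chromosome 9, so a match to a copy elsewhere in the genome is possible and was not tested.

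The same split ran through many members with 2 or more probes. In 34 members with probes at least 100 bases apart on the same strand, the upstream probe was often the lower on arrays 1 and 9. It had the lower ratio in 28 on array 1 and in 24 on array 9, beside 69.4% and 62.4% of 4954 genes. The medians for upstream minus downstream were -0.38 and -0.44. On the other 8 arrays the medians ran from -0.10 to 0.15. Some of these 8 leaned the other way. The upstream probe was lower in only 7 members on array 3, 7 on array 5 and 9 on array 7. The shares of the 4954 genes there were 46.1%, 42.6% and 36.9%. Over 4954 genes with such probes the medians were -0.12 on array 1 and -0.10 on array 9, and -0.03 to 0.06 on the others. On arrays 1 and 9 the upstream probe of Dnajb6 averaged -2.99 and the downstream one -0.32. Those of Hspa9 averaged -1.36 and -0.12, those of Hsp90b1 -1.12 and 0.38, and those of Hspd1 -0.997 and 0.03. On the other 8 arrays the upstream probes of these 4 genes averaged -0.29, -0.06, 0.16 and -0.00. The oligodendrocyte list was low on the same arrays: the median log2 ratio of its 6 markers was -0.95 on array 1 and -0.97 on array 9, and the highest of any array was 0.17. The part of RNA quality, amplification length or cell makeup in these values was not tested, and in whole tissue fewer cells of a type and less RNA per cell cannot be told apart.

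**Figure D3:**
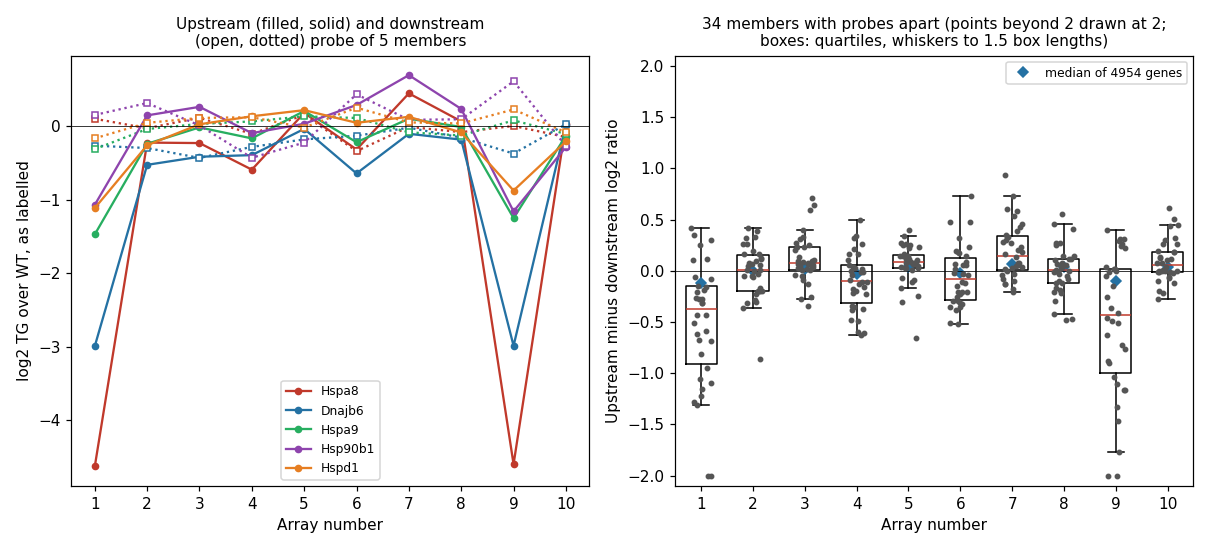
Left, log2 TG over WT as labelled on 10 arrays for the upstream and downstream probe of 5 members; right, upstream minus downstream log2 ratio of 34 members on each array, with the median of 4954 genes as diamonds. The upstream probes of Hspa8 and Dnajb6 reach -4.63 and -2.99 on array 1 and about the same on array 9, while the downstream probe of Hspa8 is at 0.10 and that of Dnajb6 at -0.27 on array 1.

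Without arrays 1 and 9, Hspa8 was at -0.07, Hspa9 at -0.03, Hspa12a at -0.03 against -0.18 on all 10, and Hspd1 at 0.03. Dnajb6 was still at -0.24 and then had an adjusted p of 0.0628. That fit called 6 of 67 members in limma, beside 4.73% of all genes: Hspe1, Dnajc19, Dnajc24 and Dnajc2 higher, and Dnajb6 and Hspa2 lower.

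The stress-inducible Hspa1a was at -0.13 ± 0.05 (SE, n = 10 arrays, limma adjusted p = 0.167) over 4 probes, all with means below 0, from -0.17 to -0.08. It was below 0 on 7 of 10 arrays, from -0.37 to 0.15. Hspa5, the HSP70 of the endoplasmic reticulum (BiP), was at -0.02 ± 0.11 and ranged from -0.54 to 0.62 between arrays. Hsph1, the HSP110 that exchanges nucleotides on HSP70, was at 0.08 ± 0.05 and Hspa4 at -0.09 ± 0.04. Their adjusted p were 0.454 and 0.257.

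**Figure D4:**
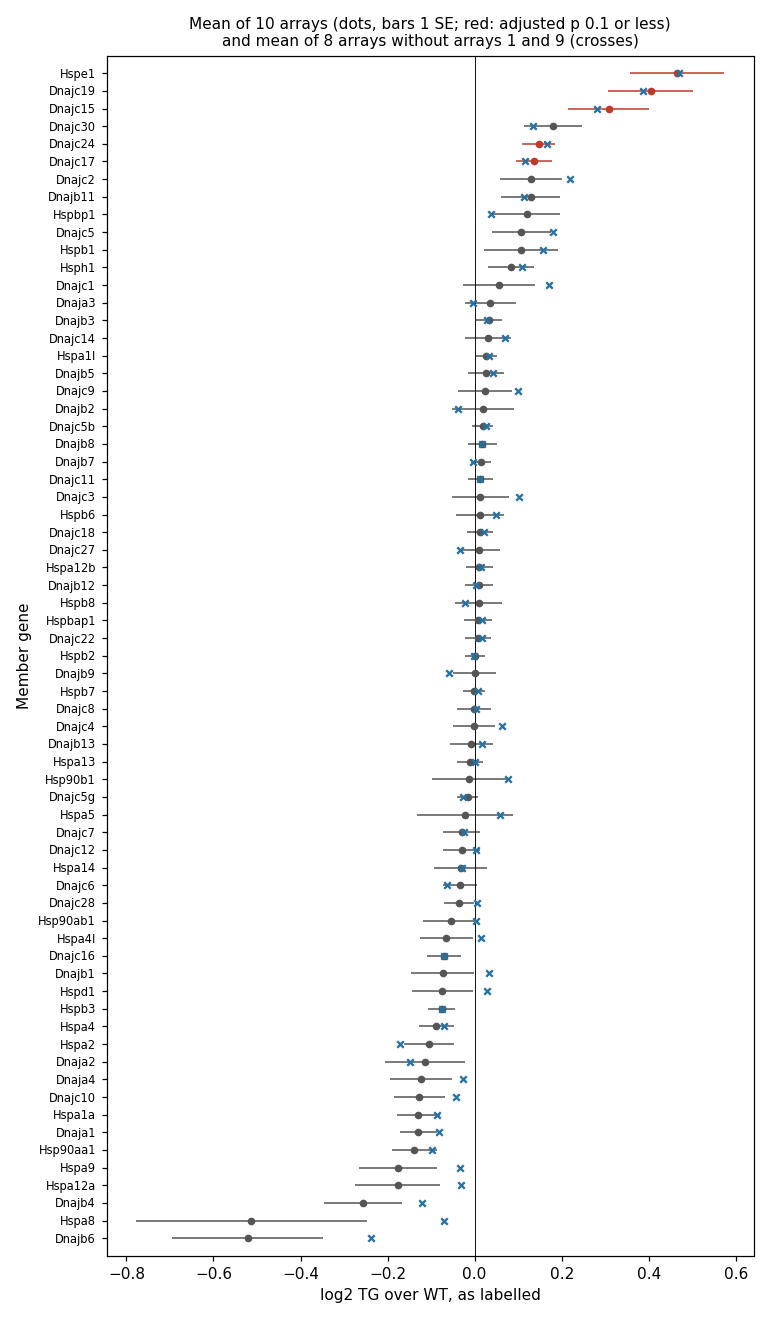
Dots give the mean log2 TG over WT, as labelled, of each member over 10 arrays, with bars of 1 SE, red where the limma adjusted p is 0.1 or less; crosses give the mean of 8 arrays without arrays 1 and 9. Hspe1 at 0.47 is highest and Dnajb6 at -0.52 lowest, and the crosses of Hspa8, Hspa9 and Hspa12a lie near 0.

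All 3 HSP90 genes had means below 0 and none was called. Hsp90aa1, the inducible form, was at -0.14 ± 0.05 (SE, n = 10 arrays, limma adjusted p = 0.158), from -0.41 to 0.13 between arrays and below 0 on 7 of them. Hsp90ab1, the constitutive form, was at -0.06 ± 0.06 and the reticulum form Hsp90b1 at -0.01 ± 0.09. Without arrays 1 and 9 they were at -0.10, 0.00 and 0.08.

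Of 6 small heat shock proteins none was called, and their median log2 ratio was 0.01. Hspb1 (HSP27), which binds unfolding proteins and actin, was at 0.11 ± 0.09 and ranged from -0.32 to 0.64. Hspb8, a partner of Bag3 in autophagy, was at 0.01 ± 0.05. Hspb3 was at -0.08 ± 0.03 with an adjusted p of 0.21.

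Type A and B DnaJ proteins feed unfolded clients to HSP70, and none of 4 and 12 was called. Dnaja1 was at -0.13 ± 0.04 (SE, n = 10 arrays, limma adjusted p = 0.11), below 0 on 9 of 10 arrays, just outside the limit. Dnajb6, which keeps polyglutamine proteins from aggregating, was at -0.52 ± 0.17 (adjusted p = 0.116). Tested alone, its downstream probe was called, at -0.21 ± 0.04 (SE, limma adjusted p = 0.0326 over all probes), and was below 0 on 9 of 10 arrays, from -0.43 to 0.02. By this probe WT mice 1, 3, 4, 5 and 6 had levels of 11.12, 11.39, 11.32, 11.06 and 11.06, and TG mice 1 to 5 had 10.90, 11.02, 10.93, 11.06 and 10.97. The groups met at WT mouse 6 and TG mouse 4. Dnajb4 was at -0.26 ± 0.09 and at -0.12 without arrays 1 and 9. Dnajb1 (HSP40), the inducible partner of Hspa1a, was at -0.07 ± 0.07, Dnajb2, a neuronal form, at 0.02 ± 0.07, and Dnajb5 at 0.03 ± 0.04.

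Type C DnaJ proteins place HSP70 at particular sites, and 4 of 25 were called (16%), all higher: those above. The share of all genes was 8.12% in either direction and 4.01% higher. With 1 level per mouse 0 of the 25 were called. Of the synaptic and vesicle genes, Dnajc5 was at 0.11 ± 0.07 (SE, n = 10 arrays, limma adjusted p = 0.452) and Dnajc6 at -0.03 ± 0.04, and 0 of 5 on that list were called. Of 10 members in the endoplasmic reticulum 0 were called. Dnajb11 was at 0.13 ± 0.07, Dnajc10, a disulfide reductase, at -0.13 ± 0.06, and Dnajb9, whose probes the files place on chromosome 5 and RefSeq on chromosome 12, at -0.00 ± 0.05. Dnajc3, an inhibitor of the kinase PERK, was at 0.01 ± 0.07, but its 4 probes went apart. The most downstream probe was called lower, at -0.29 ± 0.07 (SE, limma adjusted p = 0.0496 over all probes), and the 2 most upstream were at 0.19 and 0.17. Of the 110 member probes tested singly 6 were called, 1 in each of 6 members, 4 higher and 2 lower, beside 7.41% of all probes. Of the 35 members with several probes, 18 had means of both signs.

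The calls of other lists below are from the 10 arrays, and with 1 level per mouse limma called 0 genes of every list. The share of all genes to set beside each count is 8.12%. Among the partners of these chaperones, none of 4 heat shock factor genes was called: Hsf1 was at 0.13 ± 0.09 and Hsf2 at -0.15 ± 0.06 (limma adjusted p = 0.503 and 0.214). Of 13 HSP70 exchange factors and co-chaperones 1 was called, Bag1, at 0.19 ± 0.03 (adjusted p = 0.0197, and 0.241 with 1 level per mouse) and above 0 on all 10 arrays, and Stub1, a ubiquitin ligase, was at 0.20 ± 0.07 (adjusted p = 0.108). Of 17 HSP90 co-chaperones 1 was called, Unc45a, a myosin chaperone, at 0.19 ± 0.04 (adjusted p = 0.0407, and 0.446 with 1 level per mouse). Of 15 genes of the TRiC chaperonin and prefoldin 4 were called higher and 1 lower, 33.3% beside 8.12% of all genes. The 4 were Pfdn6 at 0.37, Pfdn1 at 0.41, Pfdn4 at 0.32 and Pfdn5 at 0.38, of the 6 subunits of the cage that hands actin and tubulin to TRiC. Cct4 of the TRiC ring was lower, at -0.30 ± 0.07 (adjusted p = 0.0491). With 1 level per mouse 0 of the 15 were called, with adjusted p of 0.575 for Pfdn6, 0.482 for Pfdn1 and 0.394 for Cct4, and without arrays 1 and 9 there were 2, Pfdn6 and Pfdn1.

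Of 17 genes of endoplasmic reticulum stress 1 was called higher and 2 lower, 17.6% beside 8.12% of all genes. Ddit3 was at 0.16 ± 0.04, Atf4 at -0.59 ± 0.15 and Canx at -0.26 ± 0.08 (limma adjusted p = 0.0454, 0.0556 and 0.0957). Without arrays 1 and 9 Atf4 was at -0.34 and Canx at -0.13. By the brightest or the most downstream probe alone the log2 ratio of Canx was 0.0075, so neither its call nor its direction held. With 1 level per mouse the adjusted p of Atf4 was 0.565. Among 10 immediate early genes Arc, at 0.30 ± 0.05 (adjusted p = 0.0176), and Fos, at 0.26 ± 0.08 (adjusted p = 0.0956), were called, 20% beside 8.12%. With 1 level per mouse the adjusted p were 0.331 and 0.449, and without arrays 1 and 9 the adjusted p of Fos was 0.166.

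Some markers of cell types differed too. Of 6 astrocyte markers, Aldh1l1 at 0.23 and Aqp4 at 0.30 were called higher, while Gfap was at -0.15 and Gja1 at -0.08, and the summed level was 3836 to 4476 in WT and 3984 to 5239 in TG mice. Of 6 oligodendrocyte markers, Mbp was called lower at -0.51 (-0.26 without arrays 1 and 9), while Cnp was at 0.24 and Mobp at 0.04, and the sum was 9910 to 13016 in WT and 5612 to 10819 in TG mice. Itgam of 6 microglia markers (-0.15, and -0.09 with a limma adjusted p of 0.219 without arrays 1 and 9), Cldn5 of 6 endothelial markers (-0.25) and Alas2 of 2 blood markers (-0.13) were called lower, while Aif1 and Tyrobp, also of microglia, were at 0.28 and 0.26, and none of 6 neuron and 5 choroid plexus markers was called. The summed levels in WT and TG mice were 1134 to 1509 and 1263 to 1464 for microglia, 1371 to 1417 and 1105 to 1319 for endothelium, 1151 to 2065 and 1109.8 to 1523 for blood, 16139.8 to 18458 and 13989.7 to 17853 for neurons, and 655 to 1776 and 545 to 1781 for choroid plexus. Other markers had log2 ratios within their SE of 0, such as Nefl at -0.009, Csf1r at 0.01, Cx3cr1 at 0.01 and Kl at 0.02. The part of cell makeup in the values of the members was not tested.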

How the data were processed

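Hippocampal RNA of 5 WT and 5 TG mice was read from 10 two-color Agilent arrays, grouped by genotype and dye as the titles give them. Per the file headers, the authors deposited spot intensity as mean and as median of the pixels, along with quality flags and the local background, from Agilent Feature Extraction 8.5.1.1, and a log10 ratio of Cy5 over Cy3 corrected for background and dye by that software. The ABI intensity values were deposited by the authors without normalization and served only the label check. Illumina columns are named by chip position and were not used here. The members and lists were chosen with earlier results of these data known.

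Mean intensities were normalized by loess within arrays in limma 3.58.1 (R 4.3.3), without background correction, with control spots at weight 0. Replicate spots were averaged into probes and these into genes as log2 values. Of 41174 probes 22207 were named by RefSeq accession and 1561 by the files. An intercept model with empirical Bayes variances was fitted over all 34692 genes and unnamed probes, and p values were adjusted by Benjamini and Hochberg with a limit of 0.1. For 1 level per mouse, channels were scaled with Aquantile and the 2 of each mouse averaged. A probe counted as present when, on all 10 arrays, both channels were above the level that 95 of 100 of the 314 negative controls stay under. Upstream and downstream follow the probe coordinates of the files. The fit was also run on simulated data with noise independent between arrays, which cannot show the effect of mice shared between arrays. Named are the members called, a list of well-known members, Dclk1 and up to 3 called genes of each other list with the smallest p; other names, such as members whose probes disagreed, Pfdn4, Pfdn5, Stub1, Hsf1 and Hsf2, were added after values were seen. The number of arrays limits the precision.

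Alternatives covered background, pixel summary, normalization, the deposited log10 ratio, present probes, a dye term, mouse-level and single channel models, robust regression, the choice of probe, a limit of 0.05 and leaving out arrays and mice.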

Additional observations from a re-analysis of the deposited data

Results flagged for a closer look

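Over 22 named members, the 10 array ratios and the levels of the 5 WT and of the 5 TG mice were searched for a value far from its neighbours, 66 groups in all, and 5 were found; chance gives about 1 in 20. Of these, 3 are of the mouse labelled TG4: its log2 level was 10.98 for Hspa8 (next lowest TG mouse 13.18), 8.99 for Dnajb6 (10.40) and 8.02 for Dnajb1 (8.54). These are the genes whose upstream probes were low on arrays 1 and 9. The other 2 are of the mouse labelled WT3, with 6.62 for Hspb8 (next lowest WT mouse 7.24) and 8.21 for Dnajb5 (next highest 7.99). The mouse labelled TG5 lay to the same side, at 6.63 for Hspb8 (next 7.15) and 8.28 for Dnajb5 (next 8.02), and these 2 mice share array 2.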

How the results depend on the processing

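All 5 members remained called with the normexp correction, scaling between arrays, and without spots flagged as outliers. Calls higher in TG fell from 5 to 3 with median centring, with the scanner software's ratio and with the most upstream probe of each gene, to 2 with robust regression and at an adjusted p of 0.05, and to 0 with 1 value per mouse as labelled or exchanged. Calls lower in TG rose from 0 to 2 with present probes only (fewer genes tested), robust regression, each probe on its own and the most downstream probe, and to 1 with the brightest probe. All genes called went from 2816 to 1166 with median centring, 1236 at 0.05, 29 with 1 value per mouse and 11 after the exchange. Leaving out 1 array or both arrays of a mouse gave 0 to 5 members higher, 0 to 2 lower and 316 to 3142 genes in all. The most upstream and downstream probes and the outlier spots were chosen as alternatives after seeing the data.

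Over 37 settings Hspe1 stayed on its side of the limit in 26, Dnajc19 in 25, Dnajc24 in 21, Dnajc15 in 12 and Dnajc17 in 11. Each of these genes had 1 probe, so the choice of probe could change its adjusted p but not its ratio. The dye term and the single channel model also left the mean ratio as it was. These settings thus test the ratios less than their number implies. The exchange turned each sign by construction: Hspe1 -0.47, Dnajc19 -0.40, Dnajc24 -0.15, Dnajc15 -0.31, Dnajc17 -0.14, Arc -0.30, Fos -0.26, Bag1 -0.19, Aldh1l1 -0.23, Aqp4 -0.30, Cldn5 0.25, Pfdn6 -0.37, Cct4 0.30, Pfdn1 -0.41, Unc45a -0.19, Ddit3 -0.16, Atf4 0.59, Canx 0.26, Mbp 0.51, Itgam 0.15 and Alas2 0.13. Canx was also at 0.0075 with the brightest or the most downstream probe. Apart from these the cause of a changed call was not tested.

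Same-numbered WT and TG mice did not deviate together (correlations of -0.211 to -0.0831 for numbers 1, 3, 4 and 5). With the mouse number as a replicate block, 0 members and 0 genes were called. The scan day as a block was not run, since all arrays were scanned on 1 day, and no ABI alternative was run, since no member matched an ABI probe.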

Other observations

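The log ratios of all genes correlated at 0.754 between arrays 1 and 9, which share a mouse, and nearly as much between arrays 2 and 3. Hspe1 was at 0.70 and 0.85 on arrays 2 and 3. This is a description over genes, which are not independent.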
